A study of Mus musculus with 9 samples.

Results

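The Ly6 genes described here are 7 neighbours on mouse chromosome 15: Ly6a, Ly6c1, Ly6c2, Ly6d, Ly6e, Ly6g and Ly6k. They were taken by symbol from the 21965 genes of the count table and chosen by differences already known from the counts of these libraries, among them those of Ly6a and Ly6c1 between BWF1 and BALB/c females. All 7 were listed, 5 passed the filter on low counts and were among the 7719 genes tested, and Ly6g and Ly6k fell below it. RNA was sequenced from the spleens of 16-week-old mice in 3 groups of 3, namely BALB/c females and both sexes of BWF1, the NZB x NZW F1. The labels name no transgene, deletion or treatment for any group. The series title names the BWF1 females as lupus-prone and both other groups as not prone. Without BALB/c males among the groups, sex was compared within the cross, and strain was compared within females and, with sex also different, between BWF1 males and BALB/c females.

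The labels disagree on the material, since the design text speaks of whole splenocytes and the sample labels of macrophages sorted for CD11b and F4/80. The genes of these 2 sorting antigens were low beside the lymphocyte genes Cd79a and Cd3e. The F4/80 gene Adgre1 averaged 14.8, 15.3 and 7.27 CPM (counts scaled to a library size of 1e6) in the females and males of the cross and in BALB/c, the order kept below. Itgam, which encodes CD11b, had 1, 37 and 22 counts in all in those groups and was at 0 in 2 of the 3 BWF1 female libraries. The B cell receptor gene Cd79a stood at 295, 402 and 444 CPM and the T cell gene Cd3e at 54.3, 98.4 and 81.3 CPM. Csf1r, a further macrophage gene, stood at 40.1, 125 and 47.4 CPM, above Cd3e in the BWF1 males. The material is therefore called spleen libraries here. In such bulk samples, fewer cells of a type and less RNA per cell cannot be told apart.

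Libraries held between 458608 and 4305003 counts in genes, and the BWF1 female libraries, at 458608 to 673160, were the shallowest. Lars2, the gene of mitochondrial leucyl-tRNA synthetase, alone took between 42.3% and 76.6% of a library, so few counts were left for other genes. CPM values are scaled by the trimmed mean of M values (TMM), a factor per library set so that most genes do not differ, and those factors lay between 0.530 (BWF1 male 1) and 1.40 (BALB/c female 2). A level of 3 counts, used here as the limit that a count of 0 allows, came to 6.62 CPM in the shallowest library and 0.625 CPM in the deepest. The names of the single-library files carry a tag, ORIG for the BALB/c females and replicate 2 of each BWF1 sex and RL for the other BWF1 libraries, whose meaning the labels do not give.

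Ly6 proteins are small, cysteine-rich surface proteins with the fold also found in the urokinase receptor, and most are held in the membrane by a glycosylphosphatidylinositol (GPI) lipid anchor. Many are used as markers of blood cells: Sca-1, the product of Ly6a, marks blood stem cells and activated lymphocytes, Ly6C marks inflammatory monocytes and also plasma cells and some T cells, and Ly6G marks neutrophils. Several are induced by interferons. Inbred strains carry different haplotypes of the cluster, BALB/c is known for Sca-1 on few resting lymphocytes, and an altered 5′ flank of the Ly-6C gene with impaired expression has been described in NZB mice. No strain sequence was used here, so a strain's haplotype and the level of a transcript cannot be told apart.

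The members span 397.071 kb of the mm10 build, from 74762056 to 75159126. Ly6d (ENSMUSG00000034634, 74762056 to 74763620, minus strand) and Ly6k (ENSMUSG00000044678, 74796874 to 74799986, minus) lie at one end. Ly6e (ENSMUSG00000022587, 74955051 to 74959905, plus) and Ly6a (ENSMUSG00000075602, 74994877 to 74998031, minus) follow. Ly6c1 (ENSMUSG00000079018, 75044018 to 75048830, minus), Ly6c2 (ENSMUSG00000022584, 75108158 to 75111970, minus) and Ly6g (ENSMUSG00000022582, 75155240 to 75159126, plus) lie at the other end. All are protein-coding genes, and the feature type that was counted is not given in the sources used here.

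How well a read can be assigned differs among them. The coding sequences of Ly6c1 and Ly6c2 share 384 of 393 bases (97.7%), whereas Ly6a shares 83.7% with Ly6c1, 83.1% with Ly6g and 86.3% with Ly6i, a further copy in the cluster. The closest and the most different stretch of 90 coding bases of the Ly6c pair are printed because they show where a read can and cannot tell the copies apart. Both cross from exon 2 into exon 3 of 4 on the minus strand, so that their genome spans include an intron. The first runs from coding base 66 to 155 (mm10 chr15:75047385-75048446 for Ly6c1 and chr15:75110543-75111602 for Ly6c2) and is the same in both genes.
Ly6c1 and Ly6c2: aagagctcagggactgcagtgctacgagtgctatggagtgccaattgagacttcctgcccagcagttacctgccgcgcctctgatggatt
The second runs from coding base 1 to 90 (chr15:75047450-75048511 for Ly6c1 and chr15:75110608-75111667 for Ly6c2) and holds 6 differing bases, shown in capitals.
Ly6c1: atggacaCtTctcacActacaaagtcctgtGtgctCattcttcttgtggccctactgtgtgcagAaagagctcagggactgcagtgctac
Ly6c2: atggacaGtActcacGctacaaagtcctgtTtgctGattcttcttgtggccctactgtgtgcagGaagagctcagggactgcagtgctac
A read within the first stretch fits both genes, and in the second a read fits 1 of them only where it covers a capital. These are sequences of the reference mouse genome and not of NZB, NZW or BALB/c mice.

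Over whole mRNAs, windows of 75 bases found again in another gene's transcripts made up 19.0% of Ly6c1, 20.7% of Ly6c2, 6.33% of Ly6a and 24.5% of Ly6k. For Ly6d, Ly6e and Ly6g the share was 0%, so that no window of that length from their annotated mRNAs recurred exactly in another gene's transcripts. Matches with differing bases, introns and strain variants were not searched. The Ly6k windows were all shared with Gm17189, an antisense gene that overlaps it, and the kit was not described as marking strand, so reads of those 2 genes cannot be told apart there. Between 55.9% and 61.5% of the entries of each library stood in the summary line for alignments that were not unique, and were not counted in any gene.

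**Figure D1:**
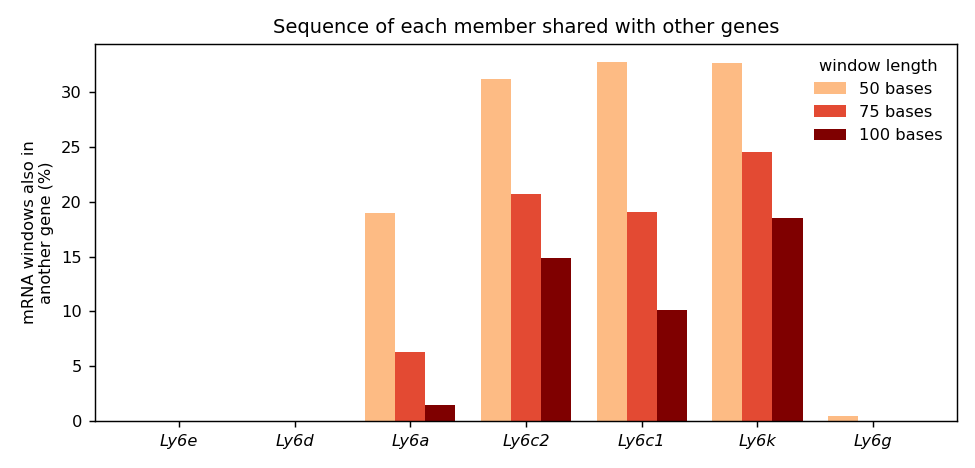
Percentage of windows of 50, 75 or 100 bases (bar colours) of each member's mRNAs, on the vertical axis, that also occur in transcripts of another gene. Bars are at 0 for Ly6d and Ly6e at every length, and at 75 bases they reach 19.0% for Ly6c1, 20.7% for Ly6c2 and 24.5% for Ly6k.

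The 250 bases before the start of Ly6c1 and Ly6c2 are printed as well, because those genes differ in their pattern over the groups, described further on. The RefSeq promoter table (GRCm38.p6) held 3 of the 7 members, these 2 and Ly6g, and the sequences are those of the reference genome. Capitals mark the letters TATAAA, searched on both strands together with an interferon-stimulated response element core (GAAA, any 2 bases, GAAA) and an interferon-gamma activated site (TTCNNNGAA).
Ly6c1, chr15:75048838-75049087, minus strand: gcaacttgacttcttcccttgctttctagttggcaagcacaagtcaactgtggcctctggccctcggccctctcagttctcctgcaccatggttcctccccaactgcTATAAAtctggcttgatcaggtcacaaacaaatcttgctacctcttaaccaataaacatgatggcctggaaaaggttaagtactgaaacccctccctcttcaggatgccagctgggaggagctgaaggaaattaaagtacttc
Ly6c2, chr15:75111972-75112221, minus strand: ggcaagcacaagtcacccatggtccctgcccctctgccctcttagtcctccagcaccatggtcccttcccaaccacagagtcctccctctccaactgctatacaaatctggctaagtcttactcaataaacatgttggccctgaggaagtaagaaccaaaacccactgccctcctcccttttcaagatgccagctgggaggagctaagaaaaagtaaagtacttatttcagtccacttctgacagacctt
Aligned, they matched at 164 of 216 bases (75.9%), with 68 bases in gaps. TATAAA occurred in the windows of Ly6c1 and Ly6g and not in that of Ly6c2, and 12.4% of 32851 promoter windows hold it. Neither interferon motif occurred in the 3 windows, against 2.98% of all windows for the response element core and 7.02% for the activated site.

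Ly6e, a broadly expressed member that restricts the entry of several viruses and is the placental receptor for syncytin-A, drew the most counts of the 7 members. It stood at 410, 368 and 314 CPM in the 3 BWF1 females, 382, 604 and 529 in their male counterparts and 154, 189 and 197 in BALB/c. All 6 BWF1 libraries were above all BALB/c libraries, and the BWF1 sexes overlapped. The means of the 3 groups were 364 ± 48.2, 505 ± 113 and 180 ± 23.0 CPM (SD, n = 3 each, as for all means here). The level was 2.02-fold that of BALB/c in BWF1 females (log2 fold change 1.02, SE 0.17) and 2.81-fold in BWF1 males (1.49, SE 0.17).

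Ly6d, the ThB antigen of B cells and an early marker of the B lineage, was also higher in the cross. BWF1 females had 117, 88.7 and 65.7 CPM, BWF1 males had 157, 147 and 182, and BALB/c females had 35.2, 41.4 and 37.7. The 3 groups did not overlap, with males highest and BALB/c females lowest. Group means were 90.4 ± 25.6, 162 ± 18.3 and 38.1 ± 3.11 CPM. The difference from BALB/c was 2.37-fold in BWF1 females (1.24, SE 0.20) and 4.25-fold in BWF1 males (2.09, SE 0.19).

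Ly6a showed the widest gap between the strains among the tested members that were higher in the cross. The BWF1 females had 61.8, 72.6 and 26.7 CPM, the BWF1 males 96.1, 89.2 and 69.1, and the BALB/c females 8.62, 5.91 and 6.94, where it rested on 12, 9 and 7 counts. Both BWF1 groups lay wholly above BALB/c, and BWF1 female 3 was the lowest of the 6 BWF1 libraries. Group means were 53.7 ± 24.0, 84.8 ± 14.0 and 7.16 ± 1.37 CPM. The fitted difference from BALB/c was 7.46-fold in BWF1 females (2.90, SE 0.30) and 11.6-fold in BWF1 males (3.54, SE 0.29).

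**Figure D2:**
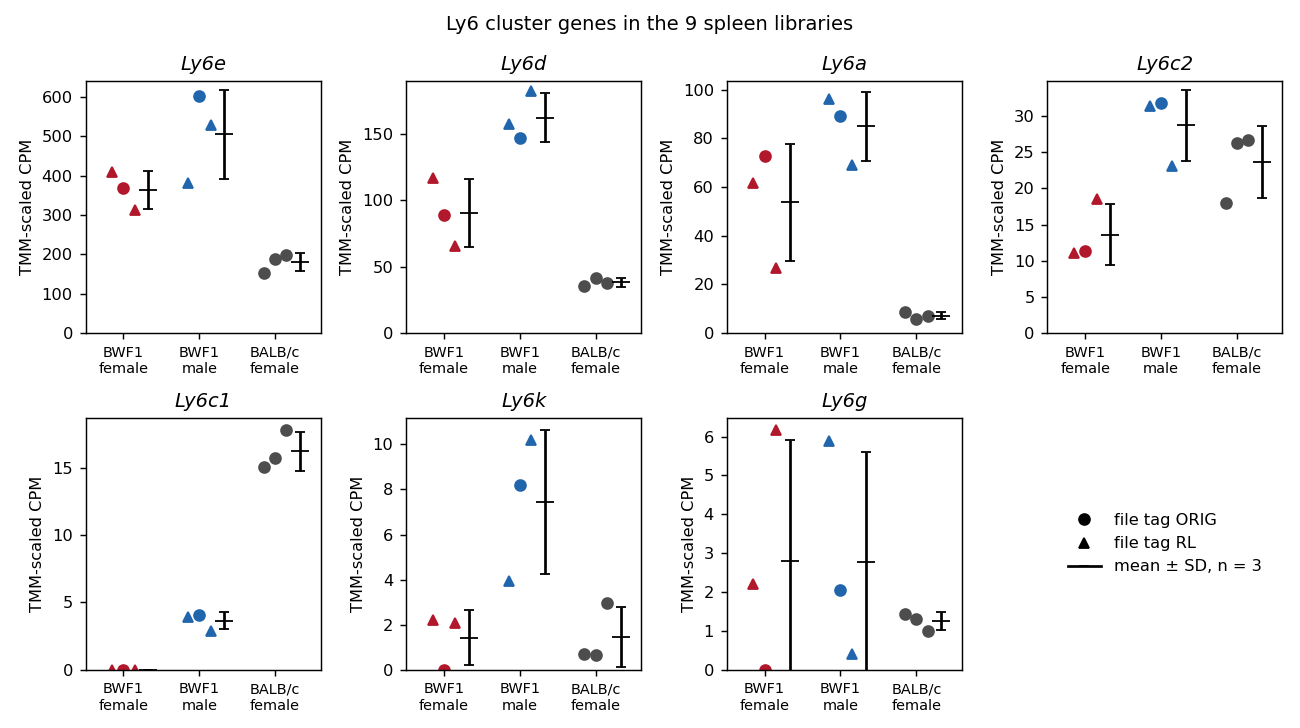
TMM-scaled CPM of each member on a linear axis from 0, with 1 point per library, circles for files tagged ORIG and triangles for RL, and the group mean ± SD (n = 3) beside them. Ly6e, Ly6d and Ly6a are higher in all 6 BWF1 libraries than in any BALB/c library, whereas Ly6c1 is highest in BALB/c females and at 0 in the BWF1 females.

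Ly6c1, one of the 2 genes for Ly6C, went the other way. Each BWF1 female library had 0 counts. The BWF1 males had 2, 4 and 14 counts (3.92, 4.10 and 2.92 CPM), and the BALB/c females 21, 24 and 18 (15.1, 15.8 and 17.8 CPM). The 3 groups did not overlap, and the BALB/c libraries were highest. The mean of 16.2 ± 1.43 CPM in BALB/c females was 4.45-fold the 3.65 ± 0.640 CPM of BWF1 males (male against BALB/c −2.23, SE 0.44). In BWF1 females, 3 counts over the group correspond to 1.92 CPM, so that the level was at least 8.44-fold lower than in BALB/c females (5.09-fold without BWF1 female 2) and at least 1.90-fold lower than in BWF1 males (1.14-fold without BWF1 female 2).

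Ly6c2, the other Ly6C gene, did not follow it. The BWF1 females had 11.0, 11.3 and 18.5 CPM (5, 7 and 9 counts), the BWF1 males 31.4, 31.8 and 23.1, and the BALB/c females 18.0, 26.3 and 26.8. BWF1 males overlapped BALB/c females, and BWF1 females overlapped them in that BWF1 female 3 was above BALB/c female 1. The means were 13.6 ± 4.23, 28.8 ± 4.89 and 23.7 ± 4.95 CPM. The log2 fold change from BALB/c was −0.80 (SE 0.32) in BWF1 females and 0.25 (SE 0.27) in BWF1 males, and the latter turned to −0.24 when libraries were scaled by their total alone.

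The share of Ly6c1 among the counts of both copies does not depend on how libraries are scaled. The BWF1 females had 0 of 5, 0 of 7 and 0 of 9, the BWF1 males 11.1%, 11.4% and 11.2%, and the BALB/c females 45.7%, 37.5% and 40.0%. Summed over each group this gave 0 of 21, which allows a share of up to 14.3% by the limit of 3 counts and 15.5% by the Wilson 95% interval, then 20 of 178 (11.2%, interval 7.39% to 16.7%) and 63 of 155 (40.6%, interval 33.2% to 48.5%). At this depth the BWF1 females could not be told from the BWF1 males in that share, and both lay below the BALB/c females. The latter is a description and not a test, since Ly6c1 was chosen with its difference from BALB/c females known. Intervals and limits cover counting error only. The sum of both copies was 13.6 ± 4.23, 32.4 ± 5.53 and 39.9 ± 6.06 CPM in the 3 groups. Because a Ly6c1 count needs a read that fits Ly6c1 alone in the reference, the part of strain differences in its sequence was not tested.

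**Figure D3:**
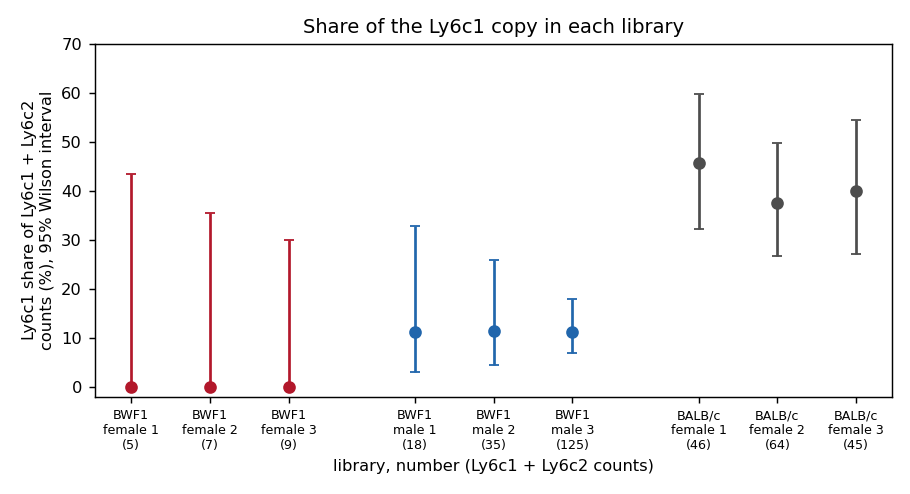
Share of Ly6c1 among the counts of Ly6c1 and Ly6c2 (vertical axis, percent) in each library, with the 95% Wilson interval as bars and the number of counts of both genes in brackets. The BWF1 females are at 0% with wide intervals, the BWF1 males at 11.1% to 11.4% and the BALB/c females at 37.5% to 45.7%.

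Ly6k and Ly6g had too few counts in most libraries to pass the filter. Ly6k, best known from testis and sperm, had 1, 0 and 1 counts in the BWF1 females, 2, 8 and 49 in the males and 1, 1 and 3 in BALB/c. Scaled for depth, the BWF1 males, at 3.92, 8.20 and 10.2 CPM, lay above all libraries of the other groups, and 49 of their 59 counts came from the deepest library. The pooled rate in BWF1 males was 7.32-fold that of BWF1 females (exact 95% interval 1.94 to 61.9), and the ratio of the group means was 5.24. That interval covers counting error only and not the spread between mice. With the antisense gene that overlaps Ly6k, the source of these reads cannot be told apart. Ly6g had 1, 0 and 3 counts in the BWF1 females, 3, 2 and 2 in the males and 2, 2 and 1 in BALB/c, and the 3 groups overlapped. No difference in Ly6g was detectable at this depth, although the neutrophil genes S100a8 (32.3, 54.2 and 54.9 CPM in the same order) and S100a9 (55.5, 115 and 136 CPM) were present in all groups.

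Levels between genes were compared per kilobase of exon (RPKM), over all annotated exon bases of a gene. Those were 3784 for Ly6e, 2740 for Ly6c2, 1677 for Ly6c1, 829 for Ly6k and 744 for Ly6d. The protein-coding mRNAs of Ly6c2 are shorter than its exon total, with 817 windows of 50 bases against 1764 for Ly6c1. Ranks by RPKM therefore depend on the length used, and by counts Ly6c2 was above Ly6c1 in BALB/c (92 against 63). By CPM Ly6e was above Ly6d in each group (364 against 90.4, 505 against 162 and 180 against 38.1). The place of Ly6d before Ly6e below thus depends on these lengths. Ly6g, with 4 to 7 counts a group, is left out, and Ly6k is given for BWF1 males alone, since it had 2 and 5 counts in the other groups. In BWF1 females Ly6d came first at 122 ± 34.5 RPKM, Ly6e followed at 96.2 ± 12.7, and their ranges overlap within 1 SD. Ly6a came next at 44.5 ± 19.9 RPKM and Ly6c2 at 4.96 ± 1.54. In BWF1 males the order was Ly6d at 218 ± 24.6 RPKM, Ly6e at 133 ± 29.8 and Ly6a at 70.4 ± 11.6, with Ly6c2 at 10.5 ± 1.79, Ly6k at 8.98 ± 3.87, which overlaps Ly6c2 within 1 SD, and Ly6c1 at 2.17 ± 0.381. BALB/c females had Ly6d at 51.2 ± 4.19 RPKM and Ly6e at 47.5 ± 6.08, which overlap within 1 SD, and then Ly6c1 at 9.68 ± 0.854 and Ly6c2 at 8.64 ± 1.81, which overlap as well. Ly6a came after them at 5.94 ± 1.14 RPKM, which overlaps Ly6c2 within 1 SD. It stood above both Ly6c genes in the cross and at or below them in BALB/c.

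The question of sex within the cross was tested with edgeR's quasi-likelihood test, with p adjusted over all 7719 genes and 0.05 as the threshold. Females had the lower mean for 6 of the 7 members, the exception being Ly6g, with means of 2.79 and 2.78 CPM. Of the 5 tested members, 1 passed, Ly6d, where 2.19% of all tested genes passed in either direction and 1.23% were lower in females. Ly6d fell by 0.85 on the log2 scale in females (SE 0.19, edgeR adjusted p = 0.0149), with all 3 females below all 3 males. That call was lost when libraries were scaled by their total alone (−0.68, edgeR adjusted p = 0.748), and when male 3 (−0.75, 0.119), female 2 (−0.84, 0.0511) or female 3 (−0.66, 0.0848) of the cross was left out.

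The other 4 tested members did not pass, and their values were lower in females. The log2 fold change was −1.05 for Ly6c2 (SE 0.32, edgeR adjusted p = 0.0802), −0.64 for Ly6a (SE 0.26, 0.203) and −0.47 for Ly6e (SE 0.17, 0.134). For Ly6c1, at 0 in females, the edgeR adjusted p was 0.0534. It was 0.0382 with no filter on low counts and 0.0494 with the file tag as a term. In the other 16 alternatives Ly6c1 did not pass, with 0.0989 for the replicate block, 0.102 with Lars2 taken out and 0.283 with library size only. With only the 2 groups compared it fell below the count filter, which it passed through BALB/c. Ly6c1 was also chosen with its BWF1 female values known, so its p is a description. With no filter Ly6k was tested too, and its edgeR adjusted p was 0.0471. Without BWF1 male 1, the Ly6e difference passed (−0.63, edgeR adjusted p = 0.0237). The sexes did not overlap for Ly6c1, Ly6c2, Ly6d and Ly6k, 4 of 7 members, and 18.7% of all tested genes did not overlap. Ly6k is not among the tested genes and Ly6c1 passed the filter through BALB/c. These shares are therefore of unlike sets and cannot be weighed against each other. Over the 5 tested members the median was −0.85, also with Ly6c1 at its bound, and over all tested genes it was 0.00.

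The comparisons with BALB/c were not tested for the members, which had been chosen with these differences known, and both comparisons share the BALB/c libraries. BWF1 females did not overlap BALB/c females in 4 of the 7 members, where 21.2% of all tested genes did not overlap, and BWF1 males did not overlap them in 5 of the 7, where 23.5% did not. Ly6a, Ly6d, Ly6e and Ly6c1 were in both sets, and Ly6k, which is not among the tested genes, was in the male set. The 7 members, chosen by such differences and not all tested, cannot be weighed against the shares of all tested genes. Within the tag ORIG, BWF1 female 2 and BWF1 male 2 against the BALB/c mean gave ratios of 10.1 and 12.5 for Ly6a, 2.33 and 3.85 for Ly6d and 2.04 and 3.36 for Ly6e. In the same libraries Ly6c1 was at 0 and 4.10 CPM, below the lowest BALB/c value of 15.1 CPM. Females against males gave ratios of 0.605 for Ly6d within ORIG (1 library each) and 0.538 within RL (2 each).

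**Figure D4:**
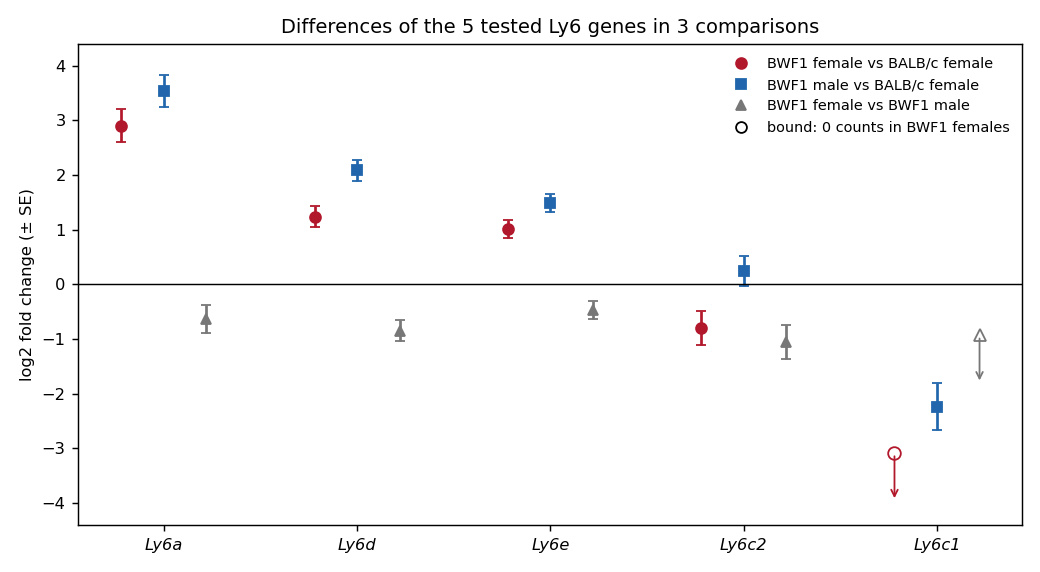
Log2 fold change with its SE as bars for the 5 tested members, in BWF1 females against BALB/c (circles), BWF1 males against BALB/c (squares) and BWF1 females against BWF1 males (triangles). Open symbols with arrows are bounds from 3 counts where BWF1 females had 0 counts. Ly6a, Ly6d and Ly6e are above 0 against BALB/c in both sexes, Ly6c1 is below 0, and all triangles are below 0, of which that of Ly6d passed the test.

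Genes beside the cluster were counted to describe the surrounding chromosome. Within 1 Mb of the members, 8 of 47 listed genes were tested (Jrk, Them6, Zfp41, Gsdmd, Eef1d, Tsta3, Scrib and Puf60), and by edgeR 0 passed in each of the 3 comparisons. At an unadjusted p under 0.05 there were 1 between the BWF1 sexes, 3 in BWF1 females against BALB/c and 1 in BWF1 males against BALB/c, while DESeq2 called 0 in each comparison and limma-voom 1 in the last. Median log2 fold changes of the 8 were −0.04, 0.01 and 0.19. Those of the tested members against BALB/c were 1.02 and 1.49. The members had been chosen by such differences and went in both directions, so their medians cannot be weighed against those of the neighbours. Within 2 Mb, 42 genes were tested, and Grina, which encodes a membrane protein named for its link to glutamate receptors, was lower in both BWF1 groups (−1.15, SE 0.26, edgeR adjusted p = 0.0106 in females and −1.06, SE 0.24, 0.0117 in males). In males the ribosomal protein gene Rpl8 was higher (0.58, edgeR adjusted p = 0.0280) and the phosphatase gene Ptp4a3 lower (−0.63, edgeR adjusted p = 0.0453). On the rest of chromosome 15, 2.88% of 312 tested genes passed in BWF1 females against BALB/c and 3.85% in BWF1 males, beside 3.82% and 3.52% of all tested genes.

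**Figure D5:**
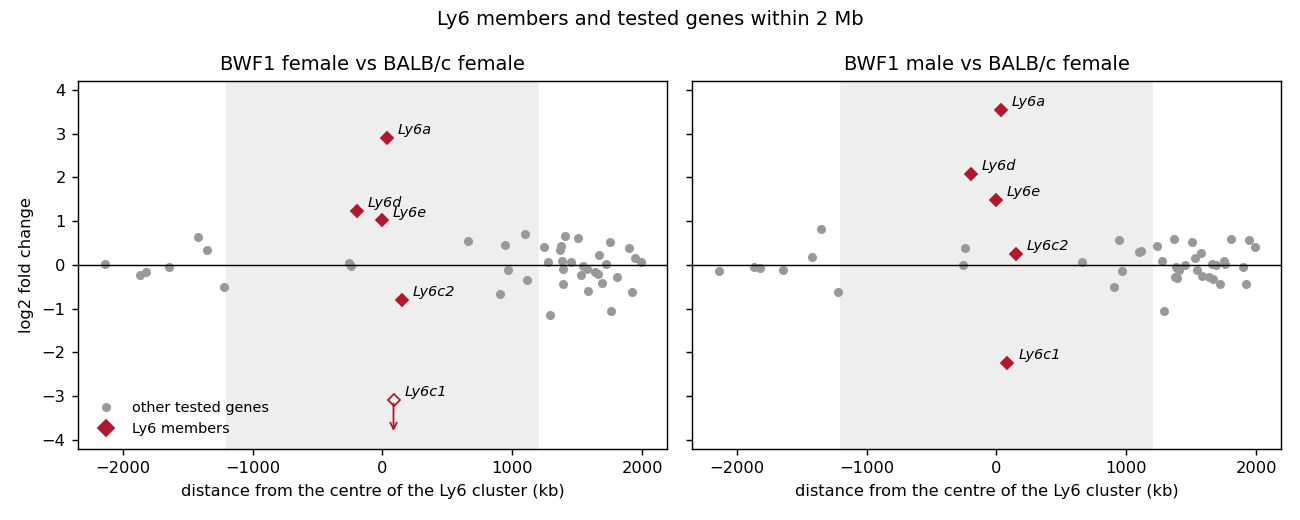
Log2 fold change against BALB/c females (vertical axis) of the tested members (diamonds) and of the 42 other tested genes within 2 Mb (grey points), by distance from the centre of the cluster in kb, with the window of 1 Mb either side of the members shaded. The open diamond with an arrow is the bound for Ly6c1, and Ly6a, at 2.90 in females and 3.54 in males, is the highest point in each panel.

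Other genes of the pathway were read from lists of the Ly6 and urokinase receptor family and of GPI-anchor synthesis and transfer. Of 33 further family genes in the table, 17 had a count and 1 was tested, the urokinase receptor gene Plaur, at 35.0, 33.5 and 31.8 CPM in the 3 groups. Ly6i, the copy closest to Ly6a in coding sequence, had 0, 3 and 0 counts in those groups, and Lynx1, a member that binds nicotinic receptors, had 9, 69 and 19. Of 29 genes that build or attach the GPI anchor, 17 were tested. Together with Plaur these 18 gave 0 calls by edgeR in each comparison, with 1, 1 and 2 at an unadjusted p under 0.05, 0 calls in each by DESeq2 and 0, 0 and 2 by limma-voom, and their median log2 fold changes were −0.04, −0.15 and 0.04.

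Since several Ly6 genes respond to interferon, 45 interferon-stimulated genes were also counted, of which 24 were tested. By edgeR 0 passed between the BWF1 sexes, 1 in BWF1 females against BALB/c and 0 in BWF1 males against BALB/c, with 2, 3 and 5 at an unadjusted p under 0.05. The 1 gene, named after its values were seen, was Irf7, a transcription factor of the interferon response, which was lower in BWF1 females (−1.21, SE 0.34, edgeR adjusted p = 0.0463). Medians of the list were −0.01, −0.09 and −0.10, and the part of interferon in the members' differences was not tested.

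Markers of the cells known to carry Ly6 proteins also differed between the groups, and their part in the members' differences was not tested. Markers that passed are named after their values were seen. Between the BWF1 sexes, 14 of 15 tested T cell markers had lower values in females and 10 passed edgeR's test as lower (adjusted p under 0.05), with a summed level of 628 to 741, 1034 to 1159 and 687 to 911 CPM in the 3 groups, and Cd8a stood at 16.1, 52.8 and 36.4 CPM. All 8 tested natural killer cell markers had lower values in BWF1 females than in their males and 5 passed (Gzma, Il2rb, Klrb1c, Nkg7 and Prf1), with sums of 125 to 163, 397 to 437 and 198 to 231 CPM. Of the 11 B cell markers, 0 passed between the sexes by edgeR (3 at an unadjusted p under 0.05), and 4 (Cd22, Cd79a, Cr2 and Fcer2a) passed as lower in the females of the cross than in BALB/c, with sums of 2505 to 2767, 2479 to 3224 and 3554 to 3614 CPM. Ly6d is a B cell antigen, and the part of B cell content in its higher level in the cross was not tested.

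Plasma cells can carry Ly6C, and 6 of 7 tested plasma cell markers had higher values in BWF1 males than in BALB/c and 4 passed edgeR's test (Jchain, Mzb1, Sdc1 and Xbp1), with sums of 571 to 849, 1271 to 2101 and 691 to 835 CPM in the usual order. Their secreted J chain gene Jchain stood at 392, 1239 and 500 CPM. Monocyte markers, of which 9 were tested, had sums of 245 to 271, 276 to 351 and 218 to 259 CPM, and 0 passed between the sexes by edgeR (2 at an unadjusted p under 0.05). Ccr2, the receptor that draws Ly6C-high monocytes from the marrow, stood at 14.3, 22.4 and 24.0 CPM. Endothelial markers, of which 6 were tested, had sums of 161 to 187, 224 to 230 and 275 to 282 CPM, and Cdh5 stood at 4.84, 9.64 and 14.3 CPM.

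Erythroid markers also differed between the groups. Their sums were 810 to 2248, 153 to 1283 and 1356 to 4187 CPM, and 7 of 8 tested markers passed as lower in BWF1 males than in BALB/c. In each other comparison 1 passed, Epb42 as higher in females than in males of the cross and Hba-a2 as lower in the females of the cross than in BALB/c. Plasmacytoid dendritic cell markers summed to 374 to 465, 418 to 481 and 395 to 434 CPM, and 0 of 6 passed by edgeR in each comparison (0, 0 and 1 at an unadjusted p under 0.05). Blood progenitor markers, of which 2 of 8 were tested, summed to 53.4 to 77.2, 43.2 to 54.1 and 52.5 to 59.1 CPM. The stem cell receptor gene Kit stood at 20.9, 21.3 and 22.5 CPM. The product of Ly6a marks such cells, and their part in its difference was not tested. Neutrophil markers, of which 9 were tested, summed to 202 to 456, 324 to 788 and 354 to 454 CPM. Against BALB/c, 1 passed by edgeR as higher and 2 as lower in BWF1 females, and 1 as higher in BWF1 males. Between the sexes of the cross 0 passed. All 10 tested macrophage markers had lower values in BWF1 females than in males and 6 passed as lower, with sums of 226 to 244, 490 to 716 and 341 to 416 CPM, and Csf1r, a growth factor receptor of these cells, stood at 40.1, 125 and 47.4 CPM. Pecam1, found on endothelium, stood at 96.0, 108 and 110 CPM. No defining marker other than Itgam was at 0 in any library.

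The genes most like each tested member over the 9 libraries were found by Pearson's r of log2 CPM, given as a description, since the libraries share groups and depth. Ly6a was most like the chaperone gene Pdia4 (r = 0.98), the aspartyl-tRNA synthetase gene Dars (0.96) and the fucosyltransferase gene Fut8 (0.95), and 27 genes had an r over 0.9 with it. Ly6d was most like the calcium pump gene Atp2a3 (0.96), the receptor gene Il17ra (0.95) and again Pdia4 (0.94). Ly6e was most like the interferon-induced Ifitm2 (0.96), Padi2 (0.94), whose enzyme makes citrulline from arginine, and the retinal reductase gene Dhrs3 (0.94). Ly6c1 was most like the transcription factor gene Tfe3 (0.98), the palmitoyltransferase gene Zdhhc3 (0.97) and the prostaglandin receptor gene Ptger4 (0.96). Ly6c2 was most like the fatty acid elongase gene Elovl1 (0.97), Susd6 (0.95) and the selenoprotein gene Selenow (0.94). As deviations from the group means, r with Ly6c1, at 0 counts in each BWF1 female library, was 0.05 for Tfe3, 0.22 for Zdhhc3 and 0.17 for Ptger4. For the genes named with the other members it lay between 0.46 and 0.90. The likeness of these genes to Ly6c1 was thus mostly one between groups.

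Among the members themselves, Ly6a, Ly6d and Ly6e went together, with r of 0.95 for Ly6a and Ly6d, 0.92 for Ly6a and Ly6e and 0.95 for Ly6d and Ly6e over the 9 libraries. Taken as deviations from the group means, these values were 0.50, 0.14 and 0.46. The Ly6c pair, alike in sequence, had an r of 0.63 over the 9 libraries, and Ly6a and Ly6c1 one of −0.71. The likeness among Ly6a, Ly6d and Ly6e was thus larger between groups than within them.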

How the data were processed

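RNA sequencing of 9 spleen libraries was analysed from raw read counts per gene deposited by the authors, with HTSeq's summary lines in the single-library files, which held the same values as the table of the series. STAR 2.6, FastQC 0.10.1 and mm10 are named, without roles, per the submitters' processing notes; ribosomal RNA was depleted, per the labels' protocols. The annotation release and strand setting are not given in the sources used here. The labels give groups of 3 mice, and p-values measure the spread between these libraries.

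The members and all gene lists were chosen with earlier results of these data known. Counts were filtered with edgeR's filterByExpr (minimum count 10), TMM-scaled and fitted with edgeR 4.0.16 (R 4.3.3) quasi-likelihood over all 9 libraries, with Benjamini-Hochberg adjustment over 7719 genes. The standard error is the log2 fold change divided by the square root of F. DESeq2 1.42.0 and limma 3.58.1 (voom) were alternatives, and the fit was tested on simulated data. GENCODE M21 gave symbols, positions and transcripts (26 gene IDs had no match), and Biopython 1.88 the alignments.

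Named genes were the 7 members, called neighbours, family and GPI-anchor genes, the defining cell markers, and per tested member the 3 genes with the highest r (log2 CPM, prior count 2), predicted genes left out. Replicates differed by more than sampling noise (chi-square per degree of freedom 1.27 to 2.77).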

Additional observations from a re-analysis of the deposited data

How the results depend on the processing

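The directions of the tested members held in all alternatives run, except Ly6c2 in BWF1 males against BALB/c, which was −0.24 with library size only. That scaling moved the median gene by 0.15, −0.29 and −0.44 on the log2 scale in the comparisons of BWF1 females with BWF1 males, BWF1 females with BALB/c and BWF1 males with BALB/c. Depth limits Ly6c1 in BWF1 females, Ly6g and Ly6k. Dividing counts by library totals without Lars2 raised every level above 0, that of Ly6k in BWF1 males from 7.44 to 17.3 CPM. This rise follows from the divisor, since each such total was smaller than the TMM-scaled library size used for CPM. The cause of the other changes was not tested.

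Genes called between the BWF1 sexes numbered 169 in the reported fit, 59 with library size only (45 higher and 14 lower in females, against 74 and 95), 304 with no filter on low counts, 92 with DESeq2 and 98 with only the 2 groups compared. For BWF1 females against BALB/c, 295 calls became 130 with library size only (23 higher, 107 lower, against 138 and 157), 169 with DESeq2 and 160 with the file tag as a term (63 and 97). For BWF1 males against BALB/c, 272 calls became 433 with Lars2 taken out before scaling, 510 with no filter, 650 with limma-voom and 153 with the tag as a term (50 and 103, against 129 and 143).

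Neighbours called in BWF1 females against BALB/c were 1 with no filter, 1 with only the 2 groups compared and 1 within 2 Mb, and in BWF1 males against BALB/c 1 with limma-voom and 3 within 2 Mb. Family and GPI-anchor genes called in BWF1 males against BALB/c were 1 with library size only, 1 with no filter, 2 with limma-voom and 1 with only the 2 groups compared.

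Leaving out 1 library at a time gave 58 to 198 calls between the BWF1 sexes (58 and 101 with male 3 or male 2 left out, 108 with female 3), 184 to 370 in BWF1 females against BALB/c (184, 189 and 194 without BALB/c female 1, 2 and 3) and 119 to 393 in BWF1 males against BALB/c (119 without BALB/c female 2, 150 without BWF1 male 3). Neighbours called ranged from 0 to 0, 0 to 1 and 0 to 1, and family and GPI-anchor genes from 0 to 0, 0 to 1 and 0 to 1. The neighbours came to 1 in the comparison of BWF1 females with BALB/c when male 1 or female 2 of the cross was left out, and in that of BWF1 males when female 3 was. Leaving out female 3 also gave 1 family or GPI-anchor call in each comparison with BALB/c.

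Same-numbered libraries of different groups had correlations of their deviations from the group means of −0.09 to 0.06, 0 of 9 over 0.1. In 3 of 18 checks a library correlated best with its own number in another group. No pairing by number was visible, though such correlations cannot exclude a shared origin. Within the cross the number also goes with the file tag, ORIG for 2 and RL for 1 and 3. With the replicate number as a block, calls numbered 118, 255 and 240, Ly6d between the BWF1 sexes had a log2 fold change of −0.86 (edgeR adjusted p = 0.0274), and no member's call changed.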
